A study of Homo sapiens with 6 samples.

Results

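The proteins of the mitochondrial ribosome are encoded by nuclear genes whose symbols start with MRPL (large subunit) or MRPS (small subunit), and their mRNA levels were examined in MDA-MB-231, an established cell line from a human breast cancer of the triple-negative type. The members were all genes with a symbol of MRPL or MRPS followed by a number, together with DAP3 and PTCD3, 2 small-subunit proteins that kept other names. This rule found 80 of the 17631 genes with a value, 49 under MRPL symbols and 31 under MRPS symbols, DAP3 or PTCD3. RNA-seq came from 3 libraries of cells given vehicle and 3 libraries of cells given PDBAG1, an engineered peptide, at 30 µM for 24 h. PDBAG1 joins a cell-penetrating sequence to a fragment of the enzyme GPD1 that the study found in adipose tissue. The vehicle itself is not named in the labels, which also give breast cancer tissue as the source beside the cell line, and the cell line was followed here. Both groups are of this 1 line, and nothing in the labels says that the libraries came from separate cultures, so p values measure only the spread between these libraries, which may be technical.

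Mitochondrial ribosomes sit in the mitochondrial matrix and translate the few mRNAs that mitochondrial DNA encodes, nearly all for membrane subunits of the respiratory chain and of ATP synthase. Their rRNA is made inside the organelle, whereas all their proteins are made in the cytosol and imported, so the ribosome depends on both genomes. Part of the proteins have counterparts in bacterial ribosomes and are called bacterial-conserved here, and the rest were gained during the evolution of mitochondria and are called mitochondria-specific. The study examined oxidative phosphorylation under PDBAG1, and the question here is how the mRNAs of the machine that makes its mitochondrially encoded subunits were placed.

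Values are TPM, a unit that divides read numbers by transcript length and scales every library to the same sum, so that levels can be compared between genes and each value is a share of its library. TPM keeps no sequencing depth, and no counting error can be given. The libraries held 12392 to 12611 genes at 1 TPM or more. Over the 12582 genes tested, log2 differences between libraries had an SD of 0.142 to 0.175 within a group and of 0.278 to 0.296 between groups. The mesenchymal markers of the line were high in all 6 libraries but differed between groups. VIM was at 4174 to 4346 TPM with vehicle and 5758 to 5942 TPM with PDBAG1, and CD44 at 313 to 331 TPM and 463 to 499 TPM. Of the other markers chosen as high, AXL was at 375 to 394 TPM with vehicle and 309 to 341 TPM with PDBAG1. KRT18 was at 508 to 527 TPM and 439 to 456 TPM. EGFR (66.3 to 82.5 TPM) and S100A4 (480 to 515 TPM) are given over all libraries. PGR (0 to 0.06 TPM) and CDH1 (0.43 to 0.84 TPM) were near 0. Other markers chosen as low or absent in this line were above 1 TPM in every library. They were ESR1 (1.96 to 3.38 TPM), GATA3 (2.73 to 3.88 TPM), EPCAM (3.92 to 5.78 TPM) and ERBB2 (23.6 to 25.4 TPM). PTPRC, a marker of blood cells, stood at 0.86 to 1.41 TPM.

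Promoters of these genes are short and rich in CpG, and sites for ETS-family factors such as GABPA (nuclear respiratory factor 2) and for YY1 are known features of nuclear genes for mitochondrial proteins. The windows below are of 4 genes with lower mRNA that hold the ETS core CCGGAAG just before the start, in 1 case in 2 copies. In MRPS26 it lies on the opposite strand, where it reads CTTCCGG. By size of fall, MRPS26, MRPL3, MRPL20 and MRPL58 were at ranks 4, 5, 6 and 11 of the 80 members. MRPL57, MRPL46, MRPL1 and MRPS7, at ranks 1, 3, 7 and 8, held no ETS core in their windows. They are RefSeq sequences on GRCh38.p14, written 5′ to 3′ on the strand of the gene, from 60 bases before the start to the base before it, with the ETS core in capitals. The windows are chr3:131502972-131503031 on the minus strand for MRPL3, chr1:1407294-1407353 on the minus strand for MRPL20, chr20:3045992-3046051 on the plus strand for MRPS26 and chr17:75012610-75012669 on the plus strand for MRPL58.
MRPL3: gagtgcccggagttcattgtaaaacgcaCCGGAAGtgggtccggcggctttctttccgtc
MRPL20: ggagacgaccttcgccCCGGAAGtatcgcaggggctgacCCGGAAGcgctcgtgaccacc
MRPS26: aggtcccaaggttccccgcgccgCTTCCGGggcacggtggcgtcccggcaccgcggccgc
MRPL58: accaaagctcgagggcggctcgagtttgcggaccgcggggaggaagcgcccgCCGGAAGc

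The YY1 motif AANATGGCG lay instead just after the start, and 3 short stretches of 30 bases show it in capitals, in a pair of genes whose mRNA fell (MRPL46 and MRPL1) and in MRPS18B, whose mRNA did not pass the test. They are chr15:88467359-88467388 on the minus strand, chr4:77862839-77862868 on the plus strand and chr6:30617855-30617884 on the plus strand.
MRPL46: gagaacgaAAGATGGCGgcgcccgtaaggc
MRPL1: agtgcccAACATGGCGgcggccgtaaggtg
MRPS18B: cgtacgtcAAGATGGCGgcgtctgtattaa

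MRPL57, the gene with the lowest fold change, held neither motif in its window, and the 100 bases before its start (chr13:21176558-21176657, plus strand) are shown because the neighbouring gene SKA3 is read in the opposite direction from the same region.
MRPL57: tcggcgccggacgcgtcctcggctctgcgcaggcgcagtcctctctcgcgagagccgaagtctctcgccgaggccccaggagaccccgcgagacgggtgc

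Most mitochondrial ribosomal protein mRNAs were slightly lower with PDBAG1, and none was higher beyond the threshold. All 80 members passed the filter on low values (1 TPM or more in no fewer than 3 libraries), with mean levels from 13.1 to 355 TPM and a median of 109 TPM. With adjustment over the whole table and a threshold of 0.05 in limma, 50 of the 80 (62.5%) were lower, against 15.9% of all genes tested. By the same limma test 0 members were higher, against 21.7% of all genes tested. At an unadjusted p under 0.05, limma gave 56 members lower and 0 higher, against 19.7% and 26.5% of all genes tested. The median log2 fold change of the members was -0.18, with the middle 50% between -0.27 and -0.11, and that of all genes tested was 0.03. In 57 of the 80 genes every PDBAG1 library lay below every vehicle library, against 20.2% of all genes tested, and in none did every PDBAG1 library lie above, as was the case for 27.2% of all genes tested.

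The changes were small for single genes. Fold changes on the log2(TPM + 1) scale ran from -0.48 to 0.05, and no member reached a fold of 1.5 (0 of 80 by limma, where 0.477% of all genes tested were lower and 2.86% higher by this rule). They were alike in the 3 PDBAG1 libraries, since 69, 69 and 64 members lay below every vehicle library in PDBAG1 libraries 1, 2 and 3, against 37.7%, 32.9% and 27.3% of all genes tested. In bulk RNA, a smaller share of cells with high levels and less of these mRNAs in each cell cannot be told apart. The members also have short transcripts, with a median of 1288 bases for the canonical transcript against 3280 bases for all genes tested, and the 40 members with shorter transcripts had a median of -0.22 (33 lower) against -0.14 (17 lower) in the 40 with longer ones. Once the dependence of fold changes on transcript length and on GC content had been fitted over all genes and taken out, the median of the members was -0.13 and that of all genes tested 0.01.

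**Figure D1:**
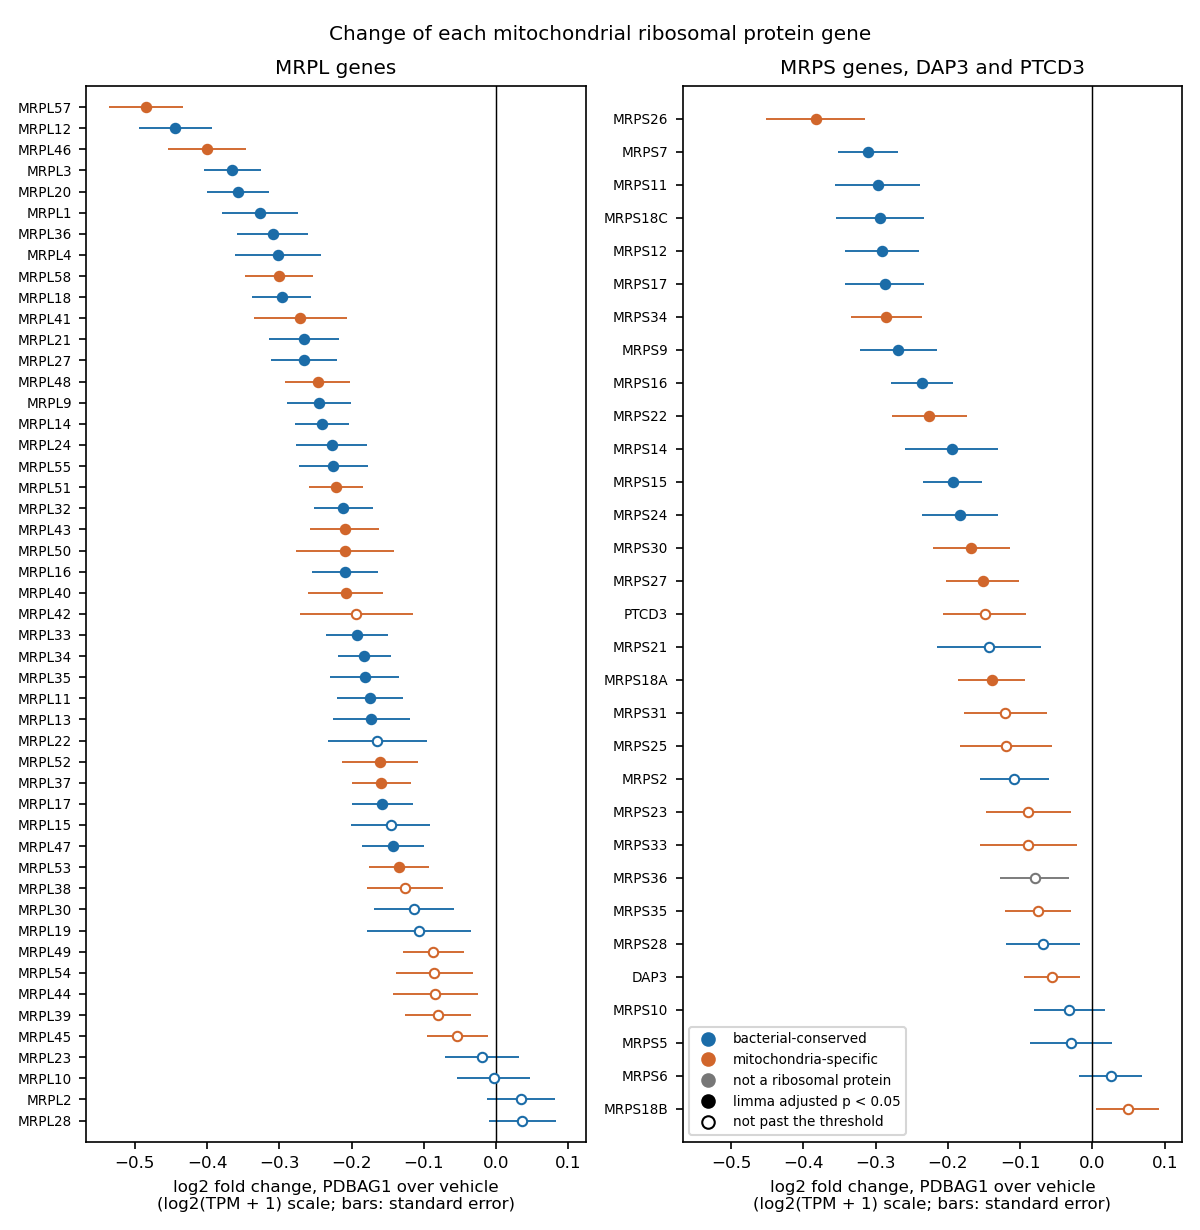
Log2 fold change (PDBAG1 over vehicle, log2(TPM + 1) scale) of each of the 80 genes, MRPL on the left and MRPS with DAP3 and PTCD3 on the right, with bars for the standard error, colours for bacterial-conserved (blue), mitochondria-specific (orange) and MRPS36 (grey), and filled points for a limma adjusted p under 0.05. The points run from -0.48 for MRPL57 to 0.05 for MRPS18B, and 76 of the 80 lie below 0.

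The plot of all 80 genes shows a continuous spread of small negative changes in both subunits rather than a few genes set apart. In each library the members together took a share of all TPM that separated the groups. Their summed level was 9419, 9531 and 9653 TPM in the vehicle libraries and 8440, 8259 and 8235 TPM in the PDBAG1 libraries, which is 0.942% to 0.965% of the library against 0.824% to 0.844%.

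Among the large-subunit genes, which form the part of the ribosome that joins amino acids, 34 of 49 fell and none rose. Over all genes tested, 15.9% fell and 21.7% rose. MRPL57 encodes a mitochondria-specific protein of the large subunit (mL63; chromosome 13, 21176658 to 21179084, positions of GENCODE v44 on GRCh38 here and below). Its level was 152, 167 and 174 TPM in the vehicle libraries and 120, 117 and 114 TPM in the PDBAG1 libraries. All PDBAG1 libraries were below all vehicle libraries, and the log2 fold change was -0.48 (SE 0.05, limma adjusted p = 7.74e-06), a fall of 28.8% in mean TPM. MRPL12 encodes the protein of the L7/L12 stalk that recruits translation factors, and it is also described as a partner of the mitochondrial RNA polymerase (chromosome 17, 81703367 to 81707517). Its libraries were at 291, 298 and 287 TPM with vehicle and at 234, 203 and 207 TPM with PDBAG1. The groups did not overlap, and the gene fell by 0.44 on the log2 scale (SE 0.05, limma adjusted p = 1.57e-05). GENCODE also lists a protein-coding gene over MRPL12 on the same strand, so reads of the pair may have been split.

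MRPL46, a mitochondria-specific protein of the central protuberance, the crown of the large subunit that faces the small one (chromosome 15, 88459477 to 88467390), had 60.9, 57.8 and 56.4 TPM in the vehicle libraries and 46.5, 42.4 and 43.1 TPM in the PDBAG1 libraries. The groups were apart, with a log2 fold change of -0.40 (SE 0.05, limma adjusted p = 7.24e-05). A protein-coding gene is also listed over MRPL46 on the same strand, so reads of the pair may have been split. MRPL3 lies next to the peptidyl transferase centre, where peptide bonds are made (chromosome 3, 131462212 to 131502983). Its vehicle libraries lay close together, at 208, 201 and 202 TPM, and its PDBAG1 libraries were at 153, 160 and 160 TPM. The spread within each group was small beside this gap, and the log2 fold change was -0.37 (SE 0.04, limma adjusted p = 9.71e-06). MRPL20, counterpart of bacterial L20 (chromosome 1, 1401909 to 1407293), stood at 183, 180 and 194 TPM with vehicle and at 148, 146 and 141 TPM with PDBAG1. No library crossed between the groups, and the log2 fold change was -0.36 (SE 0.04, limma adjusted p = 2.28e-05).

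MRPL1 forms the L1 stalk, the arm beside the site where spent tRNA leaves (chromosome 4, 77862830 to 77952785). It was at 70.9, 70.5 and 67.9 TPM in vehicle libraries and at 51.9, 57.3 and 57.3 TPM in PDBAG1 libraries, apart in every library, and fell by 0.33 on the log2 scale (limma adjusted p = 0.000277). MRPL58, also known as ICT1, is a peptidyl-tRNA hydrolase that became part of the large subunit (chromosome 17, 75012670 to 75021261). Its level was 123, 127 and 126 TPM with vehicle and 95.6, 105 and 105 TPM with PDBAG1, again without overlap, for a log2 fold change of -0.30 (SE 0.05, limma adjusted p = 0.000233).

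Small-subunit genes, whose proteins hold the mRNA and read its codons, fell in 16 of 31 cases, and none rose. The shares over all genes tested were 15.9% lower and 21.7% higher. MRPS26, a mitochondria-specific protein (chromosome 20, 3046052 to 3048250), had the lowest fold change of this subunit. Its libraries were at 89.7, 105 and 92.3 TPM with vehicle and at 80.6, 69.2 and 69.5 TPM with PDBAG1. PDBAG1 library 1 was the nearest to the vehicle group but still below it, and the log2 fold change was -0.38 (SE 0.07, limma adjusted p = 0.000637). MRPS7, the counterpart of bacterial S7 that organises the head of the small subunit (chromosome 17, 75261674 to 75266376), had narrow groups, at 154, 153 and 157 TPM against 128, 120 and 126 TPM. Its log2 fold change was -0.31 (SE 0.04, limma adjusted p = 6.39e-05). The gene overlaps GGA3 and MIF4GD on the opposite strand, and the sources used here do not state whether the libraries kept strand.

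MRPS12, a protein of the decoding centre (chromosome 19, 38930944 to 38933168), was at 129, 130 and 137 TPM in vehicle libraries and at 116, 106 and 102 TPM in PDBAG1 libraries. The groups were apart, and the log2 fold change was -0.29 (limma adjusted p = 0.000533). MRPS11, on the platform of the small subunit, had 52.6, 49.2 and 47.2 TPM with vehicle and 39.7, 42.8 and 38.2 TPM with PDBAG1 (log2 fold change -0.30, limma adjusted p = 0.00147). MRPS17 had the lowest level of these genes, with 44.9, 48.5 and 46.3 TPM against 38.8, 39.02 and 36.1 TPM (log2 fold change -0.29, limma adjusted p = 0.00110), and shares its strand with the overlapping gene NIPSNAP2.

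**Figure D2:**
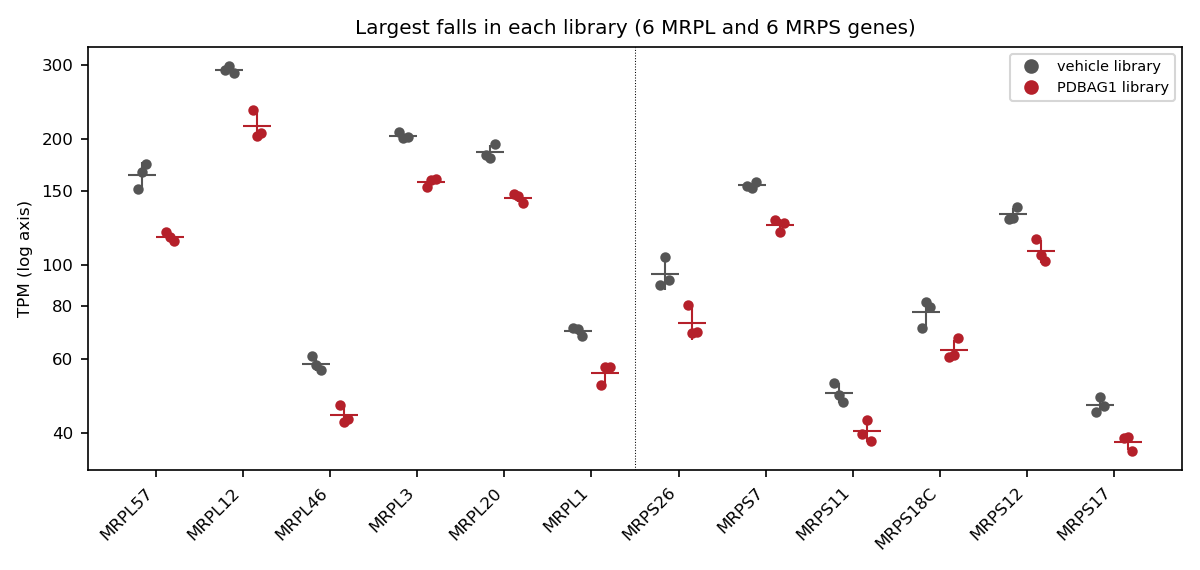
TPM (log axis) in each of the 6 libraries for the 6 MRPL and 6 MRPS genes with the lowest fold changes among those called; points are libraries (grey, vehicle; red, PDBAG1), horizontal lines are means and vertical lines SDs (n = 3 each). In all 12 genes the red points lie below the grey ones, with MRPL12 at the top and MRPS17 near 40 TPM.

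The plot of these 12 genes covers levels from about 40 to 300 TPM and log2 fold changes from -0.48 (MRPL57) to -0.29 (MRPS17). As the genes were picked by their fold change, the plot cannot show whether the change depends on level. Over all members, the median was -0.22 above the median TPM and -0.14 at or under it, a difference that was not tested. The S18 family has 3 members, relatives of 1 bacterial protein that take different places in the ribosome, and the values of their mRNAs are given side by side. MRPS18C, the nearest counterpart of bacterial S18 in the small subunit, had 70.8, 82.0 and 79.6 TPM with vehicle and 60.5, 61.3 and 67.0 TPM with PDBAG1, a log2 fold change of -0.29 (SE 0.06, limma adjusted p = 0.00190). MRPS18A, found in the large subunit in spite of its symbol, was at 90.0, 87.5 and 90.5 TPM against 84.7, 79.0 and 79.5 TPM. Its log2 fold change was -0.14 (limma adjusted p = 0.0281), and the call was lost in 6 of 13 alternative fits. Among them were those without vehicle replicate 1 (0.0610), vehicle replicate 3 (0.103), PDBAG1 replicate 2 (0.113) or PDBAG1 replicate 3 (0.0698). Another was the fit with the replicate number as a block (0.0724). MRPS18B, a small-subunit member, had overlapping groups of 130, 140 and 138 TPM and 142, 144 and 136 TPM. With 0.05 it had the highest fold change of all members (SE 0.04, limma adjusted p = 0.409). Whether the 3 changes differ from each other was not tested.

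Of the other members with positive fold changes, MRPL28 had 0.04 (limma adjusted p = 0.573), and leaving out PDBAG1 replicate 1 brought it to -0.0097. MRPL2, which lies next to the peptidyl transferase centre like MRPL3, had 0.03 (limma adjusted p = 0.593), and MRPS6, which overlaps SLC5A3, had 0.03 (limma adjusted p = 0.678). None of these 3 genes passed the test in either direction, and their groups overlapped. DAP3, a GTP-binding protein of the small-subunit head first described as a mediator of cell death, was the second most abundant of the small-subunit genes after MRPS24. It had 197, 191 and 198 TPM with vehicle and 185, 186 and 192 TPM with PDBAG1, with a log2 fold change of -0.06 (SE 0.04, limma adjusted p = 0.279). PTCD3, a pentatricopeptide repeat protein where the mRNA enters, was at 40, 39.2 and 39.7 TPM against 33.9, 34.9 and 38.3 TPM, without overlap. At -0.15 it missed the threshold (limma adjusted p = 0.0561), and it passed in 3 of 13 alternative fits, among them without PDBAG1 replicate 3 (0.0158).

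The most abundant members were MRPL51 and MRPS24. MRPL51 had 386, 379 and 376 TPM with vehicle and 325, 337 and 317 TPM with PDBAG1, a log2 fold change of -0.22 (by limma, adjusted p = 0.000371). MRPS24 was at 356, 404 and 374 TPM against 356, 328 and 314 TPM, so that the groups overlapped by a narrow margin. Its log2 fold change was -0.18 (by limma, adjusted p = 0.0145). The call was lost in 4 of 13 alternative fits, among them the limma fit without vehicle replicate 2 (0.0763). MRPS24 shares its strand with the read-through gene URGCP-MRPS24. MRPL52 likewise had overlapping groups (269, 235 and 275 TPM against 227, 235 and 232 TPM), with a change of -0.16 (limma adjusted p = 0.0277). It lost the call in 5 of 13 alternative fits, among them those without vehicle replicate 1 (0.0871), vehicle replicate 3 (0.142) or PDBAG1 replicate 1 (0.0514). MRPS15, with 183, 189 and 186 TPM against 169, 158 and 161 TPM, fell by 0.19 on the log2 scale without overlap (limma adjusted p = 0.00224).

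MRPS30, a protein of the large subunit in spite of its symbol, had 51.0, 52.5 and 51.3 TPM with vehicle and 43.7, 45.4 and 48.5 TPM with PDBAG1. Its log2 fold change of -0.17 (by limma, adjusted p = 0.0234) was not past the threshold in 6 of 13 alternative fits. Among them were those without vehicle replicate 2 (0.0825), vehicle replicate 3 (0.0646), PDBAG1 replicate 1 (0.0733) or PDBAG1 replicate 2 (0.0769), and with the replicate block (0.05996). MRPS36 carries a ribosomal symbol but is now assigned to the 2-oxoglutarate dehydrogenase complex of the citric acid cycle. It was at 52.1, 50.4 and 50.6 TPM against 48.4, 49.0 and 47.3 TPM, with a log2 fold change of -0.08 (by limma, adjusted p = 0.213).

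MRPL and MRPS genes were then set side by side. The median log2 fold change was -0.19 for the 49 MRPL genes, of which 69.4% were called lower, and -0.15 for the 31 genes of the other subunit, of which 51.6% were called lower. With genes placed by the subunit in which their protein is found, which moves MRPS18A and MRPS30 to the large subunit and leaves MRPS36 out, the values were -0.19 for 51 genes (36 lower) and -0.15 for 28 genes (14 lower). The MRPL genes had the higher levels (median 125 TPM against 70.2 TPM) and the shorter transcripts (median 1175 against 1486 bases), and the part of the level in this difference was not tested. With the dependence on length and GC content taken out, the medians were -0.15 for MRPL and -0.12 for the other subunit. Calls were more frequent among the 40 members above the median level (33 lower) than among the 40 at or under it (17 lower).

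Summed over the genes of a subunit, MRPL mRNA was at 6523, 6570 and 6713 TPM in the vehicle libraries and at 5793, 5674 and 5608 TPM in the PDBAG1 libraries. MRPS mRNA with DAP3 and PTCD3 was at 2896, 2961 and 2940 TPM against 2646, 2584 and 2627 TPM. Both sums were lower in every PDBAG1 library than in any vehicle library. The ratio of the sums was 2.25, 2.22 and 2.28 with vehicle and 2.189, 2.196 and 2.135 with PDBAG1, or 2.25 ± 0.0319 against 2.17 ± 0.0334 (SD, n = 3 each). The groups did not overlap, with a difference of -0.0785 (PDBAG1 minus vehicle) that ran from -0.0948 to -0.0594 when each library was left out in turn. With 3 libraries against 3, an exact permutation test cannot give a two-sided p under 0.1, and no test was made.

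**Figure D3:**
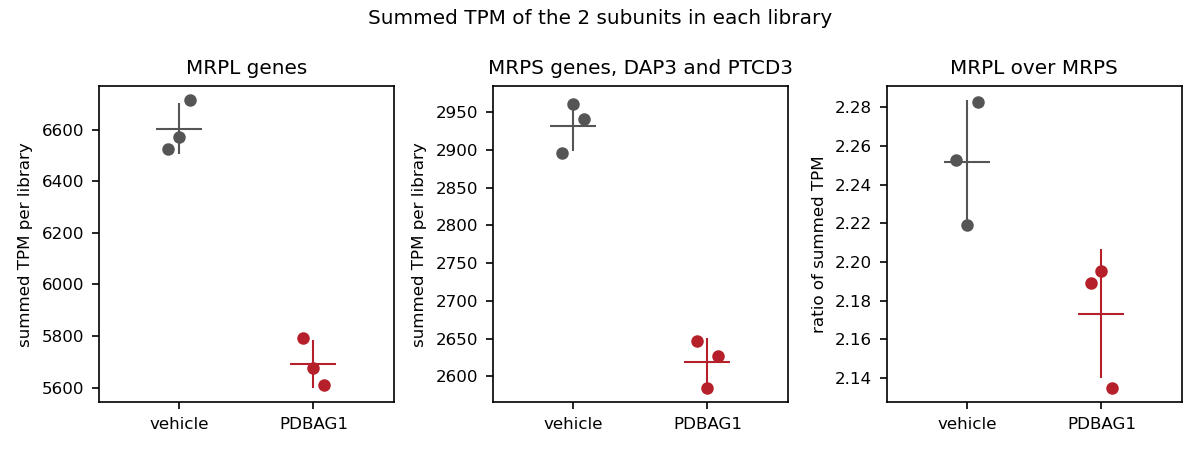
Summed TPM of the MRPL genes (left), of the MRPS genes with DAP3 and PTCD3 (middle) and the ratio of both (right) in the vehicle (grey) and PDBAG1 (red) libraries; points are libraries, horizontal lines means and vertical lines SDs (n = 3), and the axes do not start at 0. The groups are apart in all panels, with ratios of 2.22 to 2.28 against 2.135 to 2.196.

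The plot of summed levels shows a gap between groups that is wide for either subunit and narrow for their ratio. Bacterial-conserved and mitochondria-specific genes were compared in the same way. For the 46 conserved genes the median was -0.19 with 32 lower, and the 33 mitochondria-specific genes had -0.15 with 18 lower. Within the MRPL genes the medians were -0.20 for the 30 conserved genes (22 lower) and -0.19 for the 19 mitochondria-specific ones (12 lower). Within MRPS, DAP3 and PTCD3 they were -0.19 for 16 conserved genes (10 lower) and -0.13 for 14 mitochondria-specific ones (6 lower). The conserved genes also had the higher levels, with a median of 119 TPM against 88.1 TPM. With length and GC content taken into account in the same way, the medians of the classes were -0.13 (conserved) and -0.12 (specific). Summed TPM of conserved over specific genes was 1.66, 1.68 and 1.65 in the vehicle libraries and 1.65, 1.63 and 1.62 in the PDBAG1 libraries, so that the groups almost touched at vehicle library 3 (1.649) and PDBAG1 library 1 (1.648). These differences between classes were not tested.

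**Figure D4:**
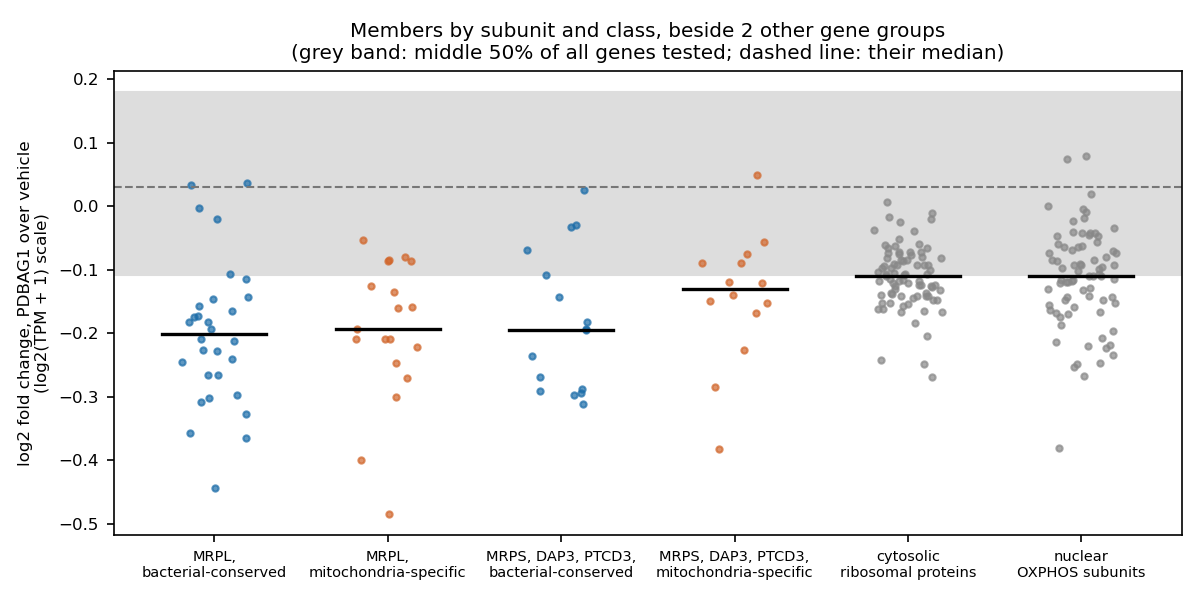
Log2 fold change (PDBAG1 over vehicle, log2(TPM + 1) scale) of single genes, by subunit and class and for 2 other gene groups; points are genes, black bars group medians, the dashed line the median of all genes tested (0.03) and the grey band their middle 50% (-0.11 to 0.18), with MRPS36 left out. The medians of the mitochondrial ribosomal groups lie between -0.20 and -0.13, and those of cytosolic ribosomal proteins and nuclear OXPHOS subunits at -0.11.

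As the plot by subunit and class shows, each of these groups spanned most of the range of the members, and single genes on both sides of 0 occurred in 3 of the 4. Within the large subunit, the genes were also grouped by the site of their protein. Of 8 genes for the central protuberance, 7 fell, with a median of -0.26. They were MRPL46, MRPL58, MRPL18 (-0.30), MRPL27 (-0.27), MRPL48 (-0.25), MRPL55 (-0.23) and MRPL40 (-0.21), whereas MRPL38 had -0.13 (limma adjusted p = 0.0716). Of 8 genes around the exit tunnel, through which the new peptide leaves towards the inner membrane, 3 fell (MRPL24 by 0.23, MRPL17 by 0.16 and MRPL47 by 0.14 on the log2 scale), with a median of -0.11. MRPL45, the membrane-facing protein at this exit, had 132, 136 and 134 TPM with vehicle and 125, 128 and 134 TPM with PDBAG1, a log2 fold change of -0.05 (by limma, adjusted p = 0.339). The 3 genes listed for the stalk went from MRPL12 at -0.44 over MRPL11 at -0.17 (limma adjusted p = 0.00848) to MRPL10, which anchors MRPL12, at -0.0033 (limma adjusted p = 0.965). MRPL10 stood at 63.3, 62.5 and 69.1 TPM against 65.5, 63.9 and 64.9 TPM. Transcripts were shorter for the central protuberance (median 932 bases) than for the exit tunnel (median 1453.5 bases), and the part of length in these values was not tested. Of all genes tested, 15.9% were called lower. The 3 sites were chosen with the values known, and no test compared them.

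The cytosolic ribosome and the respiratory chain give a scale for these values. Of 83 cytosolic ribosomal protein genes, 81 were tested, and their median was -0.11, with 47 lower and 0 higher by limma (also 0 higher at an unadjusted p under 0.05), and their canonical transcripts were shorter still, at a median of 785 bases. The 77 nuclear-encoded subunits of the OXPHOS complexes, the enzymes that receive the products of the mitochondrial ribosome, had a median of -0.11 with 31 lower. Of all genes tested, 15.9% were lower and 21.7% higher. The difference between these lists and the mitochondrial ribosomal proteins was not tested.

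Genes that work with the mitochondrial ribosome were described from lists by role. Of 3 further ribosomal proteins without an MRP symbol, AURKAIP1 fell (-0.18, limma adjusted p = 0.00485), and CHCHD1 (-0.15) and GADD45GIP1 (-0.04) did not pass. Among 28 assembly factors, 11 fell and 1 rose (against 15.9% and 21.7% of all genes tested), with a median of -0.13. The lowest were MRM2, a methyltransferase of the large rRNA, at -0.41 (49.9 ± 1.64 to 37.3 ± 1.32 TPM, limma adjusted p = 4.81e-05), MTERF4, which brings another methyltransferase to the ribosome, at -0.40 (limma adjusted p = 0.00110), and MTERF3 at -0.39 (limma adjusted p = 2.79e-05). TFB1M, which dimethylates the small rRNA, rose by 0.29 (18.4 ± 0.878 to 22.7 ± 2.44 TPM, limma adjusted p = 0.0103), a call that was lost without vehicle replicate 3 (0.0533).

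Of 13 translation factors, 4 fell and 1 rose (against 15.9% and 21.7% of all genes tested), with a median of -0.06. The falls included PDF, which removes the formyl group from new peptides (-0.37, limma adjusted p = 0.00215), C12orf65, a ribosome rescue factor (-0.30, limma adjusted p = 0.000266), and MRRF, the ribosome recycling factor (-0.23, limma adjusted p = 0.00627). The initiation factor MTIF3 rose by 0.17 (limma adjusted p = 0.0127), but not past the threshold without vehicle replicate 3 (0.0577) or PDBAG1 replicate 2 (0.0792). The elongation factor TUFM had -0.05 (limma adjusted p = 0.304). Of 8 genes that supply mitochondrial rRNA and mRNA, 4 fell, against 15.9% of all genes tested. TFAM, which packages mitochondrial DNA and starts its transcription, went from 101 ± 3.79 to 77.2 ± 5.91 TPM (-0.39, limma adjusted p = 0.000125), and PNPT1, a mitochondrial RNA-degrading enzyme, had -0.37 (limma adjusted p = 0.00147). The elongation factor TEFM had -0.23 (limma adjusted p = 0.0371), a call lost in 6 of 13 alternative fits. Among them were the fits without vehicle replicate 1 (0.134), vehicle replicate 3 (0.0978), PDBAG1 replicate 1 (0.112) or PDBAG1 replicate 2 (0.0857). POLRMT, the polymerase itself, had 0.05 (limma adjusted p = 0.590).

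C1QBP, a matrix protein with a known part in mitochondrial translation that the study examined further, had a mean of 521 ± 7.55 TPM in the vehicle group and of 418 ± 11.8 TPM in the PDBAG1 group (SD, n = 3 each). Its log2 fold change of -0.32 (SE 0.04, limma adjusted p = 1.39e-05) was below those of all members but MRPL57, MRPL12, MRPL46, MRPS26, MRPL3, MRPL20 and MRPL1. The paper reports a loss of C1QBP protein under PDBAG1 and describes the transcript, measured by qPCR, as unaffected. The lower value here is of mRNA by RNA-seq and so differs from that report, and the reason was not tested.

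The promoter windows, each from 250 bases before a gene's start to 50 bases after it, were found for 72 of the 80 genes, in 89 windows because some genes have several starts. Motifs were searched on both strands. The ETS core CCGGAAG was in 37.1% of the members' windows (30 genes), against 17.0% of the windows of all genes tested and 10.3% of all windows in the RefSeq table, at a median position 24 bases before the start, as in the sequences of MRPL3, MRPL20, MRPS26 and MRPL58 above. The YY1 motif AANATGGCG was in 21.3% (19 genes) against 5.90% and 3.19%, at a median position of 11 bases after the start. In all, 45 of the 72 genes held at least 1 of these motifs, 4 held both and 27 held neither.

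The plot of motif shares also holds the remaining motifs. The NRF1 palindrome was in 1.12% of the members' windows against 1.97% for genes tested, and its 8-letter core GCATGCGC, which the palindrome contains, in 6.74% against 4.73%. The E-box CACGTG, which MYC and related factors bind, was in 11.2% against 9.25%, and the core of the hypoxia response element ACGTG, which the E-box contains, in 29.2% against 25.4%. The GC box GGGCGG was in 61.8% against 65.7%. A match says only that the letters are present. NRF1 sites were searched only as the exact palindrome and its core, so sites with other letters were not counted. The NRF1 shares therefore cannot show that NRF1 sites are rare in these promoters, or absent from genes without a match.

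The medians of genes with and without each motif were set side by side, and no test compared them. Among genes with the ETS core the median was -0.21 (21 of 30 called lower) and those without it -0.18 (26 of 42). For the YY1 motif the medians were -0.18 (13 of 19) and -0.19 (34 of 53), and both MRPL1, which fell, and MRPS18B, which did not pass, held it. Genes with the E-box had a median of -0.13 (4 of 10 called lower) and those without it -0.19 (43 of 62), and for the hypoxia response element core the medians were -0.16 (12 of 25) and -0.21 (35 of 47). For the NRF1 core they were -0.16 (4 of 6) and -0.19 (43 of 66), and for the GC box -0.19 (29 of 45) and -0.19 (18 of 27). Of the factors themselves, GABPB1, the partner of GABPA, went from 27.2 ± 1.18 to 22.2 ± 1.24 TPM (-0.28, limma adjusted p = 0.00372), and PPRC1, a coactivator of the PGC-1 family, from 31.0 ± 0.678 to 24.7 ± 1.29 TPM (-0.32, limma adjusted p = 0.000911). NRF1 had -0.26 (limma adjusted p = 0.0218), a call lost in 6 of 13 alternative fits. Among them were those without vehicle replicate 1 (0.0631), vehicle replicate 3 (0.0742), PDBAG1 replicate 1 (0.0679) or PDBAG1 replicate 2 (0.0707) and with the replicate block (0.0536). GABPA (0.12), YY1 (-0.05), ESRRA (0.07), PPARGC1A (0.24), PPARGC1B (-0.14) and MYC (-0.06) did not pass the test.

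The members lie on 21 chromosomes, and many start close to a neighbour that is read the other way. Of 28 members with a tested neighbour whose start lies within 1000 bases on the opposite strand, 19 fell. MRPL46 and MRPS11 are each other's partner, and of the 17 remaining partners, none of them a member, 7 fell, 1 rose and 9 did not pass, where 15.9% of all genes tested fell and 21.7% rose. Of the 9 partners of members that were not called, 1 fell, 1 rose and 7 did not pass. SKA3, a kinetochore protein gene whose start is 106 bases from that of MRPL57, had 86.7, 79.9 and 81.1 TPM with vehicle and 52.7, 60.5 and 63.7 TPM with PDBAG1. Its log2 fold change was -0.48 (SE 0.06, limma adjusted p = 6.49e-05), like that of MRPL57. The starts of MRPL46 and MRPS11 are 320 bases apart, and both genes fell. The same further protein-coding gene overlaps both, on the strand of MRPL46. TWNK, the mitochondrial DNA helicase gene 46 bases from MRPL43, fell by 0.29 (limma adjusted p = 0.00597), beside -0.21 for MRPL43.

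In other pairs the values of the partners stood apart, and the difference within a pair was not tested. TMEM63B, 102 bases from MRPL14, rose by 0.66 on the log2 scale (21.3 ± 0.907 to 34.0 ± 0.989 TPM, limma adjusted p = 1.78e-06), whereas MRPL14 went from 189, 192 and 191 TPM to 164, 160 and 159 TPM (-0.24, limma adjusted p = 0.000248). SARS2, 181 bases from MRPS12, had -0.01 (limma adjusted p = 0.873), and GGA3, 273 bases from MRPS7, had -0.03 (limma adjusted p = 0.730). In GENCODE v44, 38 of the 80 members overlap another protein-coding gene, 13 of them on the same strand and 27 on the opposite one, so their values may include reads of that neighbour. Several ribosomal protein genes also have processed pseudogenes, and how reads shared with such copies were assigned is not given in the sources used here.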

How the data were processed

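RNA-seq libraries of MDA-MB-231 cells (3 vehicle, 3 PDBAG1) were grouped by their titles. The values the authors deposited are TPM for 17631 genes, 1 table per library. According to the paper's methods, reads were sequenced on the BGISEQ-500 platform and mapped with HISAT2, and values are described there as FPKM. The submitters' processing notes name HISAT2 2.0.4, Bowtie2 2.2.5, RSEM 1.2.12 and GRCh38.p12. TPM keeps no depth, so precision rests on 3 libraries per group. The 12582 genes at 1 TPM or more in no fewer than 3 libraries were tested on log2(TPM + 1) with limma 3.58.1 in R 4.3.3 (variance trend, Benjamini-Hochberg adjustment over all genes tested). The test was tried on simulated data in which few genes changed, each by more than any member did here. That trial therefore does not cover changes as small as those of the members. A fold change on this scale understates the change of low genes.

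The members and lists were chosen with earlier results of these data known. Subunit and class came from the structural names of the proteins. These names do not give the site, which was assigned separately, and the list of a site may leave out proteins found there. Named genes were the 6 lowest fold changes called in each subunit, the 2 highest, the 3 most abundant of each subunit, genes named for their role, the largest called changes of each list, C1QBP and all regulators. MRPL2, MRPL10, MRPL14, MRPS6, the genes of the sites, GADD45GIP1, CHCHD1, TUFM, POLRMT and neighbouring genes were named after their values were seen. Positions and transcript lengths are of GENCODE v44, matched through Ensembl identifiers for 17212 genes. Promoter windows are RefSeq sequences on GRCh38.p14. Alternatives were the pseudocount, the filter, scaling, the variance trend, the replicate block, leaving out each library, the fold limit, and removal of length and GC trends. The ratio by structure and without each library was added after seeing the data. Count-based tests were not run.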

Additional observations from a re-analysis of the deposited data

How the results depend on the processing

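In every alternative without a fold limit, 41 to 57 members were lower and none was higher, and 38 of the 50 called members were lower in each of 13 settings. With a fold of at least 1.5, 0 members were called in each of the 5 counts of lower genes (all, MRPL, MRPS, conserved and specific). Median-of-ratios scaling, which moved the median of all genes tested from 0.03 to -0.0005, moved the medians to -0.22 for all members, -0.23 for MRPL, -0.18 for MRPS, -0.23 for conserved and -0.19 for specific genes. Removing the trends with length and GC content moved them to -0.13 for all members, -0.15 for MRPL, -0.12 for MRPS, -0.13 for conserved and -0.12 for specific genes. Leaving out each library gave medians of -0.186 to -0.170 (all), -0.211 to -0.182 (MRPL), -0.157 to -0.125 (MRPS), -0.221 to -0.192 (conserved) and -0.163 to -0.148 (specific). It gave 41 to 49, 28 to 34, 12 to 15, 28 to 34 and 13 to 18 lower genes in the same order, and a ratio difference of -0.0948 to -0.0594. MRPL28 went from -0.0097 to 0.0649, its sign turning without PDBAG1 replicate 1. The replicate numbers share no stated origin, and deviations of same-numbered libraries correlated at -0.21, 0.01 and -0.08. With the number as a block, 44 members were lower (32 MRPL and 12 MRPS). Over the named genes and the settings, 36 calls were lost, 3 were gained and 571 kept their side of the threshold; the cause was not tested.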
